A study of Mus musculus with 3 samples.

Results

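Voltage-gated sodium and calcium channel genes, HCN channel genes and the whole family of potassium channel genes were described in dissociated cells of the mouse pituitary intermediate lobe (IL). Members were all gene symbols of the 3 deposited count tables that begin with Scn and a digit, Cacna, Cacnb, Cacng, Kcn or Hcn and have at least 50 UMIs (unique molecular identifiers, each standing for 1 captured transcript) over the 3 tables. This gave 75 members of 110 matching symbols, among 17775 genes in any of the tables. Kcnk9 with 50 UMIs, Scn1a with 52 and Kcnt2 with 57 were just inside this limit, and Kcnab1 with 44 and Kcnq1 with 35 were just outside. In RefSeq 71 members are protein coding. The symbols Kcnq1ot1, Kcnmb4os2, Kcnd3os and Kcnab3os match the letters of the rule but are noncoding or opposite-strand transcripts, so they are no channel subunits and are given as such.

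Voltage-gated sodium and calcium channels open when the membrane is depolarized, carry the upstroke of the action potential and, in the case of calcium channels, let in the calcium that triggers hormone release. Potassium channels oppose this: the voltage-gated (Kv) and calcium-activated types end each spike, while 2-pore and inward rectifier channels set the resting potential. Melanotrophs, the main cells of the IL, are excitable endocrine cells that make proopiomelanocortin (POMC), fire spontaneously and are held back by dopamine from hypothalamic fibres.

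The 3 libraries came from ILs of 3-month-old mice, 1 library per genotype. All animals carried Sox9iresCreERT2/+, in which tamoxifen-dependent Cre is made from the Sox9 locus, and so acts in Sox9-expressing stem cells (SCs) and their progeny rather than in all melanotrophs, and all received tamoxifen. The labels put this at 4 weeks of age, whereas the paper's text has Cre induced from birth in these animals, and the difference is unresolved. By the labels WT carried no further allele, P27NULL was p27-/- in addition, and S2CK was p27-/- and Sox2fl/+ (1 floxed Sox2 allele). The study's methods also list Rosa26ReYFP/+, a Cre-dependent eYFP reporter, in all 3 groups. By the methods the alleles were kept on a mixed background. Tables held 2020, 4153 and 3488 barcodes and 8332285, 15588317 and 19239147 UMIs in WT, P27NULL and S2CK.

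Some features of the libraries touch every comparison between genotypes. Cdkn1b, which encodes P27, had 33.2, 29.3 and 16.8 CPM (a gene's share of all UMIs of the same cells, on a common scale) in melanotrophs of WT, P27NULL and S2CK, so its level does not set the library labelled P27NULL apart from WT. By sex-linked transcripts WT melanotrophs were all called male, S2CK melanotrophs were called female in 2872 of 2968, and P27NULL held 2820 male and 647 female melanotrophs. A cell was called female with a UMI of Xist and none of Y-linked genes, and male with no UMI of Xist. No Y-linked transcript was required for the male call, so female cells whose Xist went uncounted fall among the cells called male. WT was also filtered more loosely before deposit. Libraries shared 2 to 4 barcodes per pair of tables.

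Melanotrophs were taken by a gate (Pomc at 5% or more of a cell's UMIs and at least 2 UMIs of Pcsk2), which held 1245, 3481 and 2968 cells of WT, P27NULL and S2CK. The other classes were clusters of the cells outside this gate named from marker genes, with all genes that match the rule left out of clustering. Other endocrine cells (275, 257 and 136 cells) joined corticotroph-like, gonadotroph-like and Pou1f1-lineage-like cells (the lineage of growth hormone, prolactin and thyrotropin cells). Pituicyte-like cells, the glia of the neural lobe, numbered 39, 12 and 11. The marker lists summed here are those that named the clusters, so a high sum in the class so named is no separate check of its identity. The pituicyte list was summed at 899 to 1621 CPM in pituicyte-like cells against 12.1 to 18.3 in melanotrophs, and the corticotroph list at 973 to 1313 against 4.39 to 14.9, with Mc2r at 0 in both and Cdh8 at 0 in melanotrophs. The melanotroph list reached 3507 to 7209 CPM inside the gate and 158 to 338 in other endocrine cells. That list includes Pcsk2, a gene of the gate, so the gate itself set much of this contrast. Pcsk2 alone stood at 4286, 5666 and 2454 CPM in gated cells of WT, P27NULL and S2CK, and at 235, 247 and 75.0 CPM in other endocrine cells. Clusters were still drawn from other genes of the same cells, and 176 gated cells lay in clusters of another name, 70 of them in the corticotroph-like cluster.

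Members made up 1216, 1454 and 1106 CPM of all UMIs in melanotrophs of WT, P27NULL and S2CK. In other endocrine cells they made up 1522, 1659 and 1387 CPM. Kcnk2 alone averaged 378.6 CPM there against 17.9 CPM in melanotrophs, and noncoding symbols such as Kcnq1ot1 are part of both sums. No difference of the group as a whole is therefore read from them. Because the 3′ method counts 1 UMI per transcript, levels are not scaled by gene length. Among the 75 members, 31 averaged at least 10 CPM over the 3 melanotroph sums, 41 averaged from 1 to 10 CPM and 3 averaged under 1 CPM. The level was uneven, since 3 members (Cacna1d, Cacna2d1 and Kcnq1ot1) took 27.9% of the summed mean. Within the group, neighbours in the order of levels were often not separated: in no library was the counting interval of Cacnb3 above that of Kcnip3, the next gene.

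**Figure D1:**
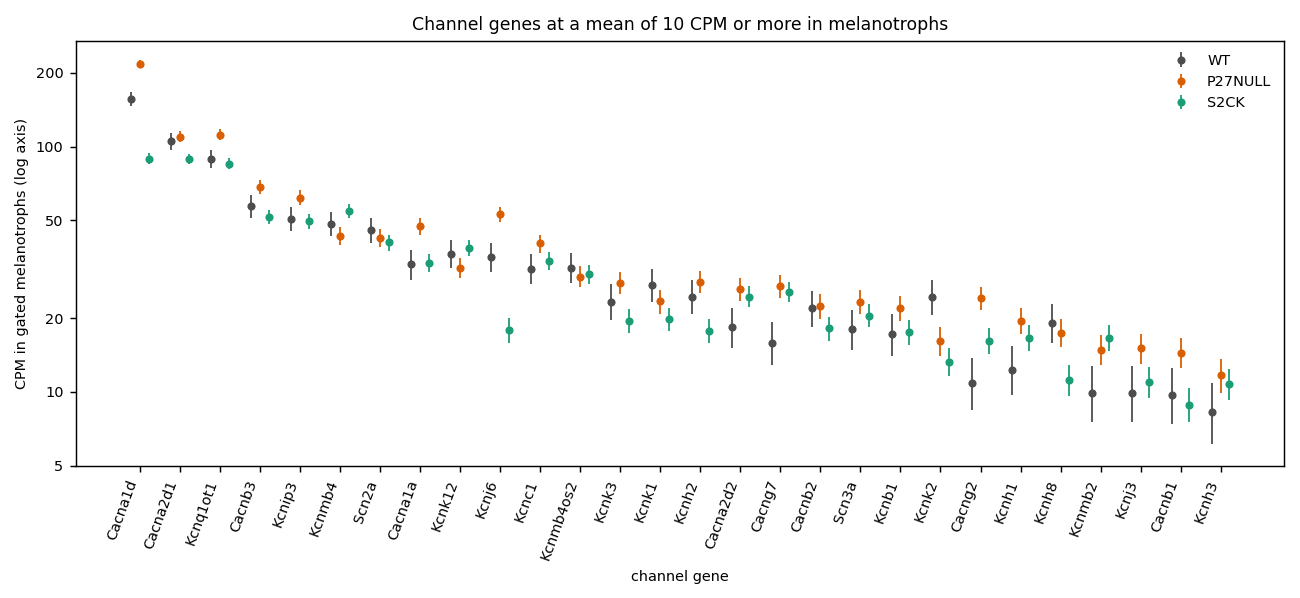
Levels of 28 members at a mean of 10 CPM or more in gated melanotrophs, the noncoding Kcnq1ot1 and Kcnmb4os2 among them. Points are CPM per library on a log axis, lines are exact 95% Poisson intervals (counting error only), and colours are the 3 libraries. Cacna1d was highest in WT and P27NULL, and Cacna1d and Kcnj6 in S2CK sit below both other libraries.

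Calcium channel genes led. Cacna1d encodes CaV1.3, an L-type pore subunit that opens at modest depolarization and is known for driving pacemaking. It was counted at 156 CPM in WT, 218 in P27NULL and 89.3 in S2CK melanotrophs. The other L-type member, Cacna1c (CaV1.2), averaged 4.48 CPM, so Cacna1d took 97.1%, 97.6% and 96.4% of L-type UMIs in the 3 libraries. The other high-voltage pore genes were Cacna1a (the P/Q-type channel) at 33.1, 47.4 and 33.5 CPM and Cacna1b (N-type) at a mean of 8.65 CPM. T-type genes, whose channels open near rest, were low, with Cacna1i at a mean of 7.64 CPM and Cacna1g at 0.967 CPM.

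Auxiliary subunits, which carry the pore to the membrane and tune its gating, were led by 1 gene in each class. Cacna2d1, an alpha2delta subunit, was counted at 105, 110 and 89.1 CPM and took 78.3% to 83.8% of alpha2delta UMIs. Cacnb3 (a beta subunit) was counted at 57.1, 68.6 and 51.7 CPM in the 3 libraries, and Cacnb2 averaged 20.8 CPM. Cacnb3 took 57.7% to 60.2% of beta subunit UMIs. Among gamma subunit genes, which include partners of AMPA receptors as well as of calcium channels, Cacng7 averaged 22.8 CPM and Cacng2 averaged 17.0 CPM.

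Sodium channel genes were led by Scn2a, a neuronal pore subunit (NaV1.2), at 45.6, 42.5 and 40.7 CPM in the WT, P27NULL and S2CK libraries (mean 42.9 ± 2.47, SD, n = 3 libraries), so the libraries differed little. Scn3a, another neuronal pore subunit, averaged 20.6 CPM. Scn2a took from 42.4% to 53.6% of the UMIs of the 6 pore genes. The beta subunit gene Scn2b averaged 8.66 CPM.

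Potassium channel genes were spread over many members. The Kv pore group of 18 genes was led by Kcnc1 (Kv3.1, a fast channel that shortens spikes), which took only 17.0% to 18.6% of the group's UMIs, at 31.8, 40.3 and 34.2 CPM. Kcnip3, whose product binds calcium and Kv4 channels, led the Kv auxiliary group at a mean of 54.1 CPM, with Kcnip2 next at 4.13 CPM. Kcnmb4, a beta subunit of the large-conductance calcium-activated (BK) channel, was counted at 48.5, 43.3 and 54.5 CPM and Kcnmb2 at a mean of 13.8 CPM. The BK pore gene itself, Kcnma1, averaged 8.05 CPM, below its beta subunit Kcnmb4 in all 3 libraries.

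Among inward rectifiers Kcnj6 (GIRK2, a channel opened by G proteins) stood at 35.5, 52.9 and 17.9 CPM and Kcnj3 (GIRK1) averaged 11.95 CPM. Kcnj6 took 72.8%, 71.9% and 54.0% of inward rectifier UMIs in WT, P27NULL and S2CK. The 2-pore genes Kcnk12 and Kcnk3 averaged 35.7 and 23.5 CPM. The HCN genes, whose channels open on hyperpolarization, were low, with Hcn2 at a mean of 8.26 and Hcn3 at 3.73 CPM. Kcnq1ot1, the noncoding RNA of an imprinted domain, averaged 95.2 CPM and Kcnmb4os2, which lies opposite to the start of Kcnmb4, averaged 30.6 CPM. The sources used here do not state how strand entered the counting, so reads of Kcnmb4 and Kcnmb4os2 over their shared bases cannot be told apart.

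**Figure D2:**
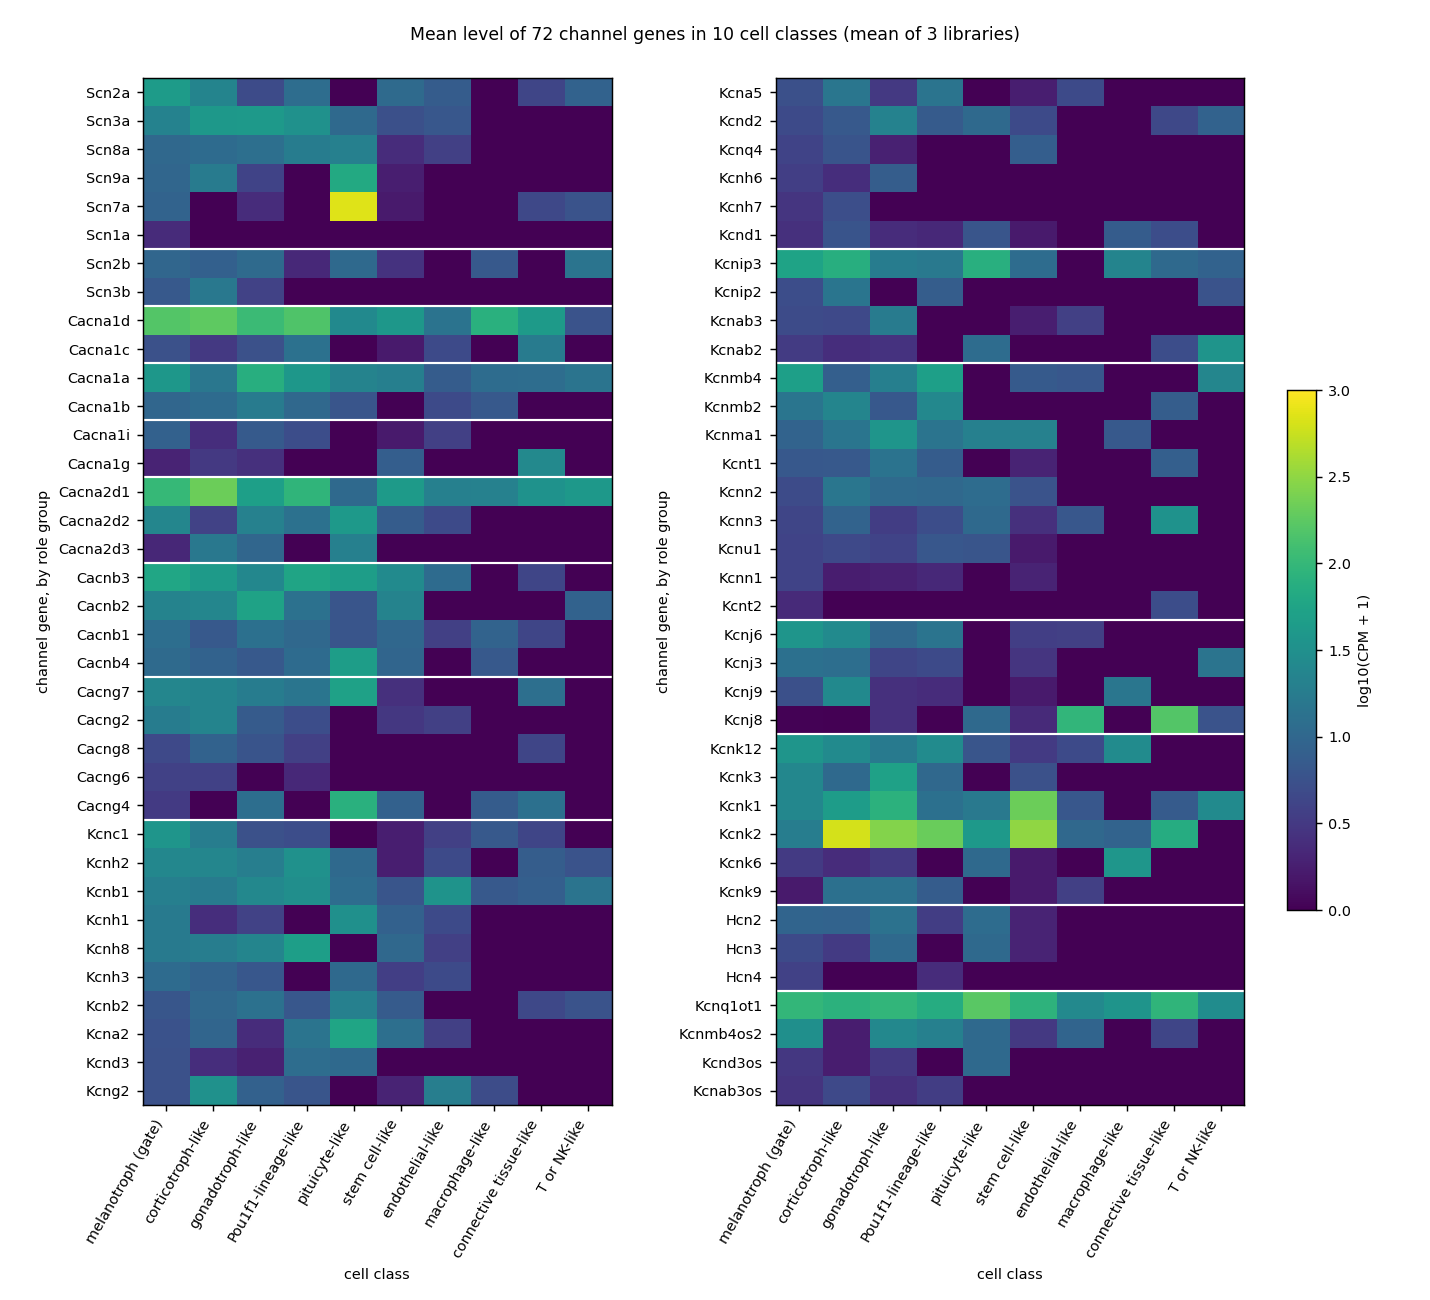
Mean level over 3 libraries of 72 members in 10 cell classes, as log10(CPM + 1). Rows are genes ordered by role (white lines part the groups) and by melanotroph level, and columns are classes. Bright cells mark Scn7a in pituicyte-like cells, and Kcnk2 in corticotroph-like and SC-like cells.

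Melanotrophs and other endocrine cells of the same libraries were compared to ask which channel genes set the IL cells apart. The clearest difference was a gene that melanotrophs had little of. Kcnk2 encodes TREK-1, a 2-pore potassium channel that responds to membrane stretch, lipids and heat. It was counted at 24.3, 16.1 and 13.2 CPM in melanotrophs and at 410, 352 and 373 CPM in other endocrine cells of WT, P27NULL and S2CK. The ranges were far apart in every library, and the difference was -4.36 ± 0.15 on the log2 scale (SE, n = 3 libraries, edgeR adjusted p = 5.51e-10), a 20.5-fold lower level in melanotrophs. Among the members abundant enough for the test, Scn2a and Kcnc1 differed most in the other direction. Scn2a stood at 11.01, 14.1 and 7.98 CPM in other endocrine cells against 40.7 to 45.6 in melanotrophs (log2 difference 2.04 ± 0.21, edgeR adjusted p = 2.37e-05). Kcnc1 stood at 4.59, 6.404 and 17.6 CPM against 31.8 to 40.3 (2.12 ± 0.32, edgeR adjusted p = 4.07e-04). Neither gene's groups overlapped.

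For Kcnk2, Kcnc1, Kcnmb4 and Scn7a (high in pituicyte-like cells, described further on), which each differed between classes, the 250 bases before a RefSeq start (GRCm38.p6) are shown 5′ to 3′, so that the sequence at the head of each gene can be read beside its levels. Capitals mark motifs searched on both strands. The TATA box (TATAAA) is in 12.4% of 32851 RefSeq windows of the same length. The GC box (GGGCGG) is in 32.7% of them. The core letters of a T-box site (TCACACC) are in 3.33%, and no letters of the motifs found overlapped. The median GC content of all windows was 52.4%.
Kcnk2: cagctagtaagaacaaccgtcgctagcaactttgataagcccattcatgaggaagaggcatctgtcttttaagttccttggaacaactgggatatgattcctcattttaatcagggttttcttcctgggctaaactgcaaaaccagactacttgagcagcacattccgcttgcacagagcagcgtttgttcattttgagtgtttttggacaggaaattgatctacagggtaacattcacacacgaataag
Kcnc1: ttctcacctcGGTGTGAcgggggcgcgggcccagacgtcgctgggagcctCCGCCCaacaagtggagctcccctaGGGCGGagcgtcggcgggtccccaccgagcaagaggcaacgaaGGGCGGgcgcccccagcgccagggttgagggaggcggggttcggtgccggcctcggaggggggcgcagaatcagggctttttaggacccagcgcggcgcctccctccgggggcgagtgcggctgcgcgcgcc
Kcnmb4: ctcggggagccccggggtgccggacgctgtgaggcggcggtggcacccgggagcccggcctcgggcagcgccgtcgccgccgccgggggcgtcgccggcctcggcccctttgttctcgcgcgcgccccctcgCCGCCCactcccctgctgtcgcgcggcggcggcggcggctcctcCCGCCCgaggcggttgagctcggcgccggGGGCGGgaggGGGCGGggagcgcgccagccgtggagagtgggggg
Scn7a: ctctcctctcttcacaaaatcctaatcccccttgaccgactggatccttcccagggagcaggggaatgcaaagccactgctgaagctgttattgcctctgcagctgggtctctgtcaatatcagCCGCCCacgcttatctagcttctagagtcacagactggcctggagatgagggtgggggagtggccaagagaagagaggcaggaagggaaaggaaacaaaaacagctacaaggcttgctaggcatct
The windows are chr1:189402274-189402523 on the minus strand for Kcnk2 (the most upstream of 4 listed starts), chr7:46396218-46396467 on the plus strand for Kcnc1, chr10:116473524-116473773 on the minus strand for Kcnmb4 and chr2:66784911-66785160 on the minus strand for Scn7a. For Kcnk2, Kcnc1 and Kcnmb4 the RefSeq gene span reaches further upstream than the listed start. The window of Kcnmb4 lies within Kcnmb4os2. GC content was 42.4% for Kcnk2, with none of the 3 motifs. It was 74.4% for Kcnc1, with 3 GC boxes and 1 TCACACC match, 83.6% for Kcnmb4, with 4 GC boxes, and 53.2% for Scn7a, with 1 GC box. These are matches of letters in 1 window each.

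In all, 31 members were abundant enough for the test, at a mean of 10 CPM or more over the sums in the fit, and 44 were not. Of the 31, 10 were higher in melanotrophs, where 9.43% of all 7919 genes tested were, and 5 were lower, where 9.55% of all genes were. The median log2 difference was 0.19 for the members tested and -0.0014 for all genes. The other 16 did not pass, among them the leading genes Cacna1d (144.7 CPM in other endocrine cells, log2 difference 0.19 ± 0.12) and Cacna2d1 (115.8 CPM, -0.10 ± 0.16). Nothing is read from the counts of calls. Kcng2, Kcnma1 and Kcnc1, for example, passed the filter on low values only through the class where they were high.

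Next to Scn2a and Kcnc1, the higher potassium channel genes included Kcnj6 (1.36 ± 0.22, edgeR adjusted p = 7.19e-04), Kcnmb4 (1.36 ± 0.21, 5.76e-04), Kcnip3 (0.66 ± 0.18, 0.0228) and Kcnk12 (0.63 ± 0.18, 0.0287). Kcnj6 stood at 17.4, 17.9 and 7.98 CPM in other endocrine cells of WT, P27NULL and S2CK, so the groups overlapped across libraries, although melanotrophs were higher within each. Kcnmb4 stood at 27.5, 12.8 and 17.6 CPM there and its groups did not overlap. Calcium channel subunits added Cacna2d2 (alpha2delta, 1.14 ± 0.26, 0.00746) and Cacnb3 (beta, 0.80 ± 0.17, 0.00617). Kcnmb4os2, the transcript opposite Kcnmb4, was also higher (0.96 ± 0.27, 0.0271).

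Beside Kcnk2, the lower genes were Kcng2, a silent Kv subunit that works only with other Kv subunits (-1.68 ± 0.41, edgeR adjusted p = 0.0118), the BK pore gene Kcnma1 (-1.44 ± 0.28, 0.00303), the 2-pore gene Kcnk1 (-0.95 ± 0.21, 0.00644) and Scn3a (-0.73 ± 0.18, 0.0125). Kcnma1 stood at 22.9, 33.3 and 14.4 CPM in other endocrine cells and at 8.11, 9.01 and 7.03 CPM in melanotrophs. In every library the beta subunit gene Kcnmb4 was thus higher and the pore gene Kcnma1 lower in melanotrophs. Kcnma1 and Kcng2 averaged 8.05 and 4.555 CPM in melanotrophs, so both passed the filter on low values only through other endocrine cells.

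**Figure D3:**
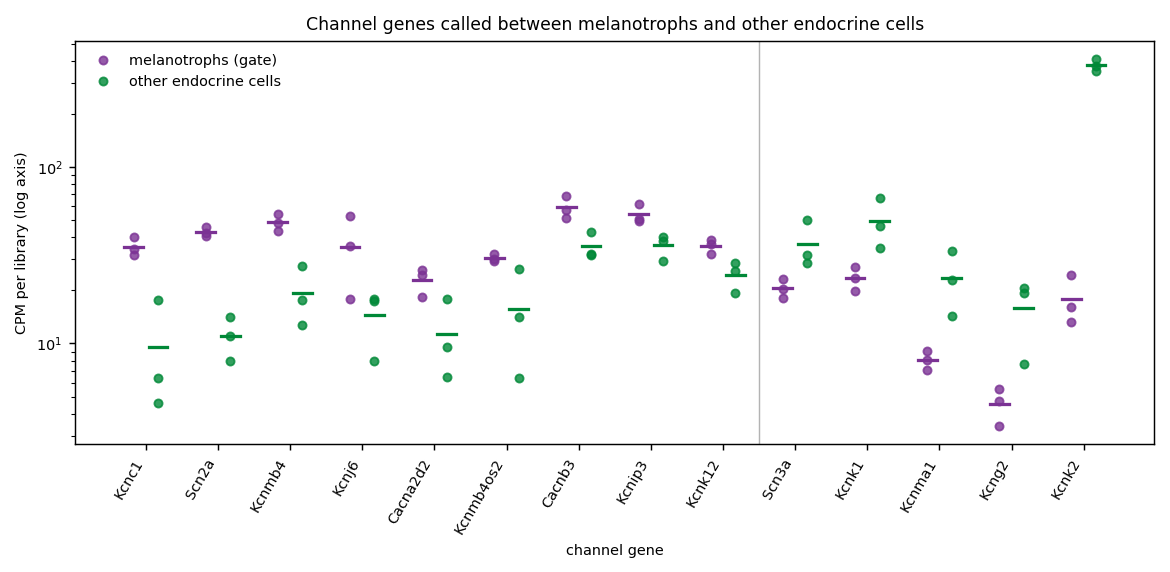
Levels of 14 members called between gated melanotrophs and other endocrine cells (edgeR, adjusted p of 0.05 or less). Points are CPM per library on a log axis and bars are means over 3 libraries, with genes higher in melanotrophs left of the grey line and genes lower in melanotrophs right of it. Kcnk2 differs most, at 13.2 to 24.3 CPM against 352 to 410 CPM.

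Other endocrine cells are a mixture, so each class was also set against melanotrophs alone. Corticotrophs make POMC too and are the closest relatives of melanotrophs. Against corticotroph-like cells (161, 101 and 70 cells) 8 of 32 members tested were higher in melanotrophs (9.06% of all 8082 genes) and 4 were lower (8.01%). Kcnk2 reached 661, 616 and 627 CPM in corticotroph-like cells, its highest level in any class, 29.8-fold above melanotrophs (log2 difference -4.90 ± 0.14, edgeR adjusted p = 1.203e-39). Kcnmb4 was nearly absent there, with 2, 1 and 3 UMIs (3.18 ± 0.39, edgeR adjusted p = 1.02e-09), and Kcnmb4os2 had 1 UMI in all. Cacna1a (1.89 ± 0.36), Kcnk3 (1.55 ± 0.42), Kcnc1 (1.45 ± 0.35), Scn2a (1.34 ± 0.29) and Cacna2d2 (3.03 ± 0.58, against 3 UMIs) were also higher in melanotrophs. Cacnb3 was called higher too (0.66 ± 0.22) but not in every library. Lower in melanotrophs were Kcng2 (-2.49 ± 0.43), the inward rectifier Kcnj9 (-2.16 ± 0.49) and Cacna2d1 (-0.75 ± 0.14), which stood at 211, 208 and 206 CPM in corticotroph-like cells. The level of Cacna2d1 was thus uniform over libraries there and above all 3 melanotroph values.

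Against gonadotroph-like cells (55, 127 and 32 cells) 8 of 33 members were higher in melanotrophs (6.93% of all 8040 genes) and 5 were lower (7.29%). The higher ones included Kcnc1 (3.28 ± 0.47), Scn2a (3.22 ± 0.45), Kcnj6 (2.39 ± 0.47), Kcnip3 (2.04 ± 0.41), Cacnb3 (1.51 ± 0.28), Kcnmb4 (1.42 ± 0.37) and Cacna2d1 (1.18 ± 0.29). The lower ones were Kcnk2 (-3.81 ± 0.23), the A-type Kv gene Kcnd2 (-2.41 ± 0.60), Kcnma1 (-2.08 ± 0.36), Kcnk1 (-1.60 ± 0.26) and Cacnb2 (-1.21 ± 0.26). Cacnb2 stood at 53.1, 53.3 and 52.1 CPM in gonadotroph-like cells. Against Pou1f1-lineage-like cells (59, 29 and 34 cells) 3 of 30 members were higher (4.45% of all 7420 genes), namely Kcnc1 (2.45 ± 0.64), Scn2a (2.37 ± 0.59) and Kcnip3 (1.83 ± 0.51), and 2 were lower (4.84%), Kcnk2 (-3.72 ± 0.23) and Kcnh8 (-1.64 ± 0.41). Kcnmb4 was not called there, at a mean of 47.7 CPM against 48.7 in melanotrophs (-0.12 ± 0.31, edgeR adjusted p = 0.907). Kcnk2, Kcnc1 and Scn2a were the members called in the same direction against all 3 endocrine classes, which share the melanotroph sums. In these comparisons too, some genes passed the filter on low values only through the class where they were high. Kcng2 and Kcnj9 against corticotroph-like cells, and Kcnd2 and Kcnma1 against gonadotroph-like cells, are examples. Nothing is read from the counts of calls.

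The low Kcnk2 level in gated cells was lower still in those that also lay in melanotroph-like clusters, at 21.8, 14.3 and 11.5 CPM in the WT, P27NULL and S2CK libraries. In the 42, 17 and 11 gated cells of the corticotroph-like cluster the level was 77.2, 141 and 349 CPM. Corticotroph-like cells held transcripts of 5 melanotroph genes as well, and the level that free RNA (from broken cells, taken up in droplets of other cells) of melanotrophs could give was computed for each gene and class from such markers. Kcnk2 exceeded this level in other endocrine cells of all 3 libraries. The level is a small share of the melanotroph level, so a gene far lower in melanotrophs exceeds it by construction. How much of the Kcnk2 level in melanotrophs came from free RNA of other cells was not tested.

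In the calls against other endocrine cells, DESeq2 in place of edgeR called 9 members and leaving out S2CK left 8. Kcnk2, Scn2a, Kcnc1, Kcnmb4, Kcnma1, Kcng2 and Cacnb3 kept their call under every alternative that gave a value. Of these, Kcnc1, Kcnma1 and Kcng2 passed the main filter on low values only through the class where they were high, and their calls are to be read with that limit.

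Pituicytes, glia that do not fire action potentials, were compared as a class outside the endocrine lineage. Scn7a had the highest mean level of all members there, with Kcnq1ot1 next at 109, 249 and 145 CPM. The Scn7a product, NaX, is an atypical sodium channel that senses extracellular sodium and is known from glia. Scn7a was counted at 930, 966 and 232 CPM in pituicyte-like cells of WT, P27NULL and S2CK, from 60, 31 and 8 UMIs, and at 4.54, 10.1 and 9.40 CPM in melanotrophs. The log2 difference was -5.72 ± 0.34 (edgeR adjusted p = 2.58e-59), 52.9-fold lower in melanotrophs. Every library showed it, with S2CK lowest (S2CK against WT, log2 ratio -2.004, 95% counting interval -3.28 to -0.93, 11 and 39 cells). The SE and p-value come from an edgeR fit that shares dispersion over genes, and they do not measure this spread between libraries. Scn7a averaged 7.995 CPM in melanotrophs, so it passed the filter on low values only through pituicyte-like cells. Markers of Schwann cells, another glial type, were summed at 62.3 to 261 CPM in pituicyte-like cells, with 3 of 4 detected. Their part in the result was not tested.

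Of 33 members tested against pituicyte-like cells, 6 were called higher in melanotrophs (8.9% of all 8413 genes) and 3 lower (6.25%). Nothing is read from these counts, since several of these genes, Scn7a among them, passed the filter on low values only through the class where they were high. Cacna2d1 had 1 UMI in all pituicyte-like cells (4.44 ± 0.85, edgeR adjusted p = 5.68e-06) and Cacna1d had 3 (3.44 ± 0.60, 3.98e-07), although with melanotroph-like clusters in place of the gate the Cacna1d difference was 1.54. Scn2a, Kcnmb4, Kcnc1 and Kcnj6 had none. With 3 counts over the group as the floor, they were at least 1.87-fold (Scn2a), 2.13-fold (Kcnmb4), 1.55-fold (Kcnc1) and 1.55-fold (Kcnj6) higher in melanotrophs. Cacng4, a gamma subunit (93.0, 0 and 145 CPM in pituicyte-like cells), and Kcna2 (7 UMIs) were called lower in melanotrophs, Cacng4 not in every library. These calls rest on 64487, 32082 and 34483 UMIs in the 3 pituicyte-like sums, and leaving out WT, the largest, gave 3 calls in place of 9. The calls of Kcna2, Kcnc1, Kcnj6 and Scn2a were each lost under 3 to 8 of 15 alternatives.

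Ion transport genes outside the rule were followed from a list of 68 pumps, exchangers, calcium stores, leak channels and calcium-binding proteins, of which 36 were tested in each comparison. Against other endocrine cells 8 were higher in melanotrophs and 3 were lower, beside 9.43% and 9.55% of all genes tested, and the median log2 difference was 0.11 beside -0.0014 for all genes. The highest of these was Calb1, a cytoplasmic calcium buffer (288, 344 and 648 CPM against 42.2, 21.8 and 78.2, log2 difference 3.25), and the lower genes included Trpc5 and Itpr1, the type 1 receptor that releases stored calcium (-1.67). Against pituicyte-like cells 7 were higher and 4 lower, beside 8.9% and 6.25% of all genes tested, with Calb1 (6.46) among the higher and the sodium pump regulator Fxyd1 (-7.47) among the lower. Nothing is read from the counts of this list in either comparison. Genes such as Trpc5 and Fxyd1 passed the filter on low values only through the class where they were high.

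Genotypes were then compared in melanotrophs. With 1 library each there is no replicate check, and the intervals given cover counting error only. Ratios are log2 of CPM, and members with at least 50 UMIs in the 2 libraries were counted. In P27NULL against WT 13 of 63 members were higher by more than 1.5-fold (7.98% of all 11538 genes) and 5 were lower (2.79%). In S2CK against P27NULL none of 68 was higher (4.06% of 12170 genes) and 13 were lower (13.9%). In S2CK against WT 8 of 64 were higher (6.02% of 11687 genes) and 8 were lower (8.68%). Median ratios of the members were 0.27, -0.25 and -0.05, beside 0.08, -0.16 and -0.06 for all genes. The split depended on scaling: with trimmed mean of M-values (TMM) factors, which moved the median of all genes in S2CK against P27NULL from -0.16 to -0.02, 3 members were higher and 6 lower in that contrast. Leaving Pomc and the mitochondrial and ribosomal protein genes out of the total gave 1 and 7 there, and 10 and 7 in P27NULL against WT. With the female cells of P27NULL alone the split of S2CK against P27NULL was 5 and 9.

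**Figure D4:**
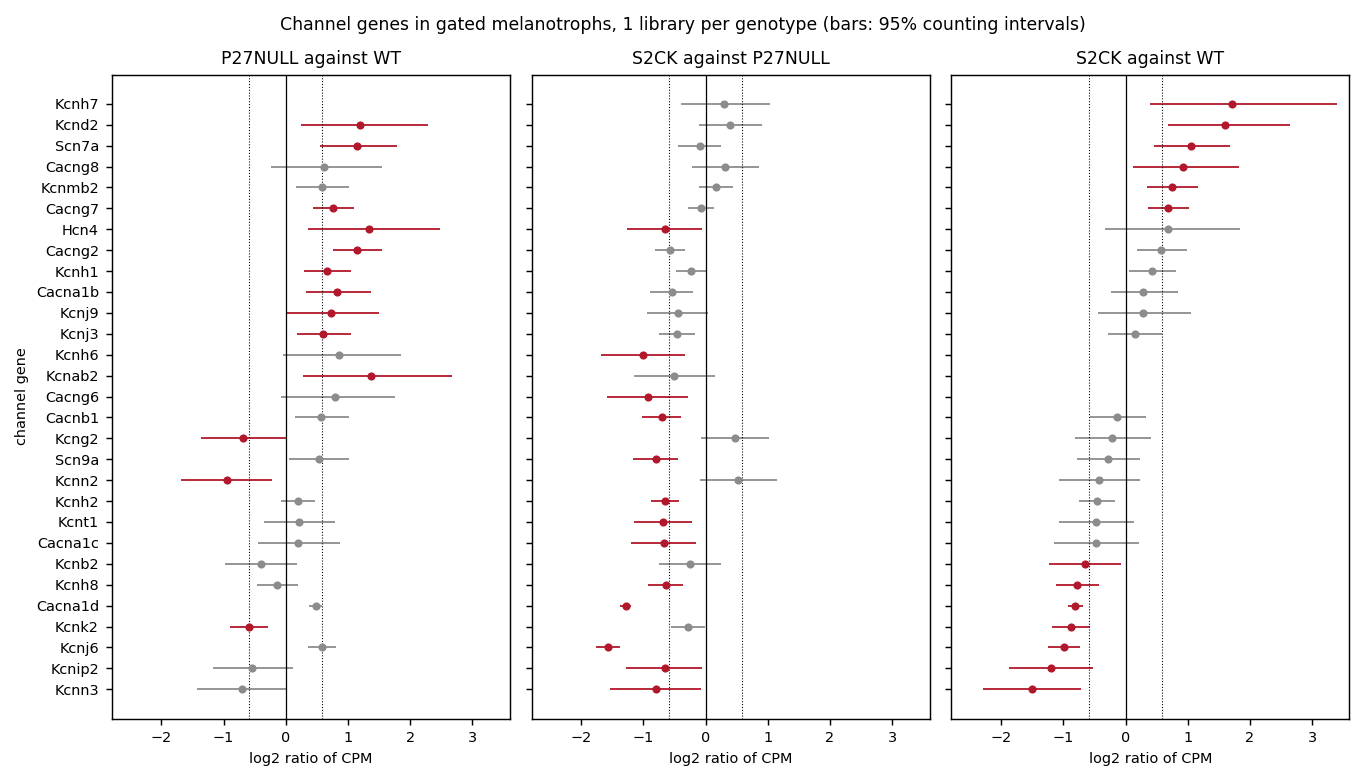
Log2 ratios of CPM in gated melanotrophs for the members past 1.5-fold in at least 1 contrast with an interval that leaves out 0. Points are ratios of 1 library to 1 library, lines are exact 95% counting intervals, dotted lines mark 1.5-fold, and red marks ratios past it whose interval leaves out 0. Genes with under 50 UMIs in a contrast have no point there. Cacna1d and Kcnj6 have the narrowest intervals among the low ratios of S2CK.

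Cacna1d, the leading channel gene, was the most deeply counted member with a difference, with 963, 2924 and 1511 UMIs in WT, P27NULL and S2CK. Its log2 ratio was 0.48 (0.37 to 0.59) in P27NULL against WT, -1.29 (-1.38 to -1.20) in S2CK against P27NULL and -0.81 (-0.92 to -0.69) in S2CK against WT. S2CK was thus lowest and P27NULL highest. Over the melanotroph clusters with at least 50 cells of a library, Cacna1d stood at 79.7 to 102 CPM in S2CK. It stood at 129 to 183 in WT and 203 to 241 in P27NULL, so the cluster values did not overlap. Counting intervals did overlap, those of the highest WT cluster (150 to 222) and the lowest P27NULL cluster (183 to 225). So did those of the lowest WT cluster (93.6 to 174) and the highest S2CK cluster (87.5 to 118). Clusters of 1 library are not repeats of a difference between libraries. Male and female cells of P27NULL stood at 223 and 200 CPM, and the ratio of S2CK to the female cells of P27NULL was -1.17. Under the alternative scalings the ratio of S2CK to P27NULL stayed between -1.29 and -1.15.

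In other endocrine cells, which share the library but not the cells, Cacna1d stood at 162, 196 and 76.6 CPM, a log2 ratio of -1.36 (-1.85 to -0.88) in S2CK against P27NULL and -1.08 (-1.57 to -0.61) in S2CK against WT. The ratio of S2CK to P27NULL was -0.97 in corticotroph-like, -2.20 in gonadotroph-like and -1.73 in Pou1f1-lineage-like cells, all with intervals below 0, and -0.98 (-2.10 to 0.11) in SC-like cells. Cacna1d shares 528 bases at its 3′ end with Chdh on the opposite strand, and Chdh was counted at 0 to 0.591 CPM in melanotrophs. A difference that runs over several classes of 1 library cannot be told apart from a property of that library.

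**Figure D5:**
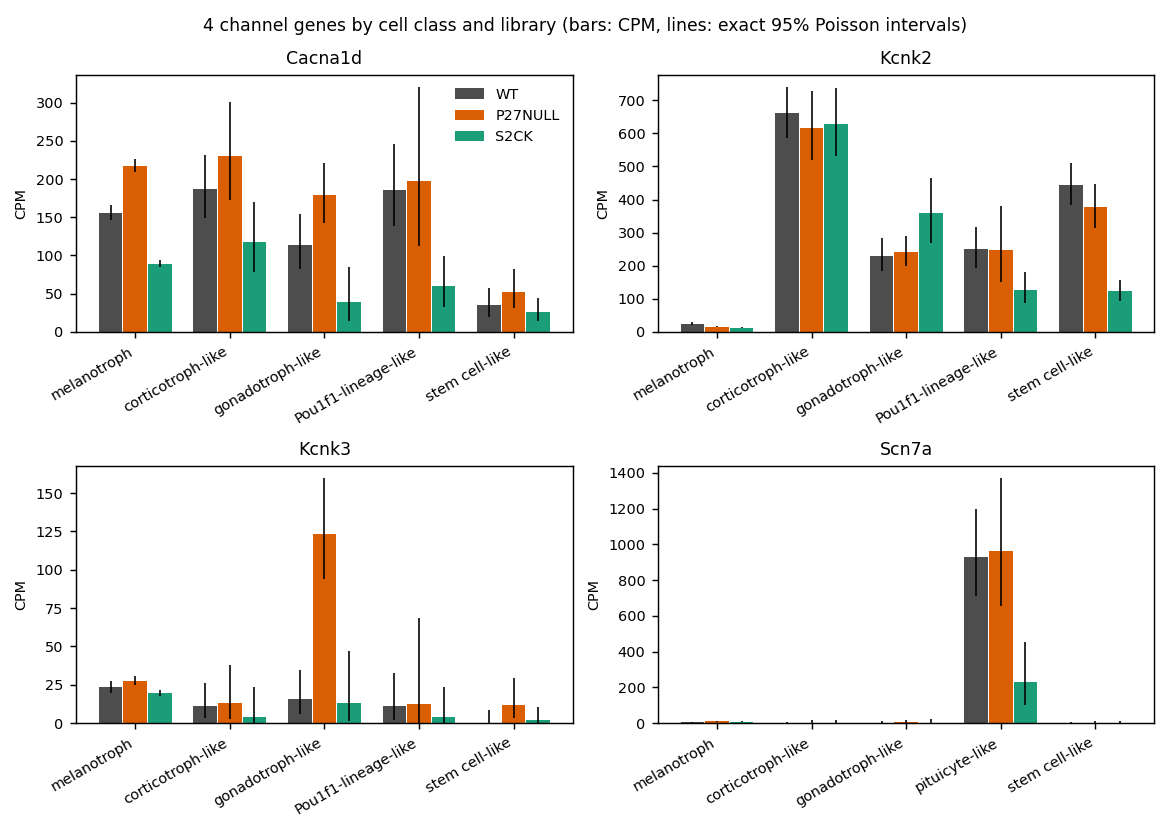
Cacna1d, Kcnk2, Kcnk3 and Scn7a by cell class and library. Bars are CPM from 0, lines are exact 95% Poisson intervals, and colours are the 3 libraries. Cacna1d is lowest in S2CK in each of the classes shown, Kcnk2 is lowest in S2CK among SC-like cells at 123 CPM, Kcnk3 is highest in P27NULL gonadotroph-like cells at 124 CPM, and Scn7a is high in pituicyte-like cells.

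Kcnj6 was counted in melanotrophs with 219, 711 and 302 UMIs. Its log2 ratio was -1.57 (-1.77 to -1.37) in S2CK against P27NULL and -0.99 (-1.25 to -0.73) in S2CK against WT. Kcnj6 also differed with the sex call inside P27NULL, at 58.4 CPM in male and 34.9 CPM in female cells, and the ratio of S2CK to the female cells of P27NULL was -0.97. Its GIRK partner Kcnj3 stood at 9.89, 15.0 and 10.9 CPM, in the order of WT, P27NULL and S2CK, with a ratio of 0.61 (0.19 to 1.04) in P27NULL against WT. The sex call thus moved with the Kcnj6 level, and its part in the ratio between genotypes was not tested further.

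Among the other members lower in S2CK than in P27NULL were the ether-a-go-go (Erg) pore genes Kcnh2 (28.0 against 17.7 CPM, ratio -0.66, -0.88 to -0.44) and Kcnh6 (-1.01), the sodium channel gene Scn9a (-0.81), the sodium-activated potassium channel gene Kcnt1 (-0.68), the small-conductance calcium-activated channel gene Kcnn3 (-0.80), the gamma subunit Cacng6 (-0.93) and the beta subunit Cacnb1 (-0.70). The sign for Cacnb1 turned to 0.39 against the female cells of P27NULL. Kcnh2 was the only one of these above 15 CPM in both libraries, and Kcnh6, Cacng6 and Kcnn3 had under 60 UMIs in either library.

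In P27NULL against WT the higher members with intervals above 0 included gamma subunits and Kv genes. Cacng2 stood at 24.1 against 10.9 CPM (ratio 1.15, 0.76 to 1.55), although with every cell thinned to 1000 UMIs the sign turned to -0.21. Cacng7 stood at 26.95 against 15.9 CPM (0.76, 0.44 to 1.10). Scn7a had a ratio of 1.15 (0.55 to 1.79), at 10.1 against 4.54 CPM. The N-type gene Cacna1b (0.83), the Kv genes Kcnd2 (1.199) and Kcnh1 (0.66), the Kv beta subunit Kcnab2 (1.37), the pacemaker gene Hcn4 (1.34) and the inward rectifier genes Kcnj9 (0.73) and Kcnj3 (0.61) completed this group of 10. The ratios of Kcnab2 (0.27 to 2.67), Hcn4 (0.35 to 2.48) and Kcnd2 (0.25 to 2.28) rested on 8, 10 and 11 UMIs in WT. The interval of Kcnj9 began at 0.02. Kcnn2 (-0.95), Kcng2 (-0.69) and Kcnk2 (-0.60) were the 3 with intervals below 0.

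In S2CK against WT, Kcnd2 (1.59, 0.69 to 2.65) and Kcnh7 (1.71, 0.39 to 3.41) had the highest ratios but rested on 11 and 5 UMIs in WT. Cacng7 (0.68) and the BK beta subunit Kcnmb2 (16.6 against 9.89 CPM, 0.75, 0.34 to 1.17) were counted more deeply. Scn7a (1.05) and Cacng8 (0.92) were also higher. Lower with intervals below 0 were Kcnn3 (-1.51), Kcnip2 (-1.20), Kcnj6 (-0.99), Kcnk2 (-0.88), Cacna1d (-0.81), Kcnh8 (-0.78) and Kcnb2 (-0.66). Of the genes called between melanotrophs and other endocrine cells, Scn2a, Kcnc1 and Kcnmb4 were past 1.5-fold in none of the 3 contrasts, while Kcnj6 and Kcnk2 were past it in 2 contrasts each and Kcng2 in 1.

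In SC-like cells (127, 99 and 77 cells), the marginal cells that line the cleft, Kcnk2 and Kcnk1 were above the free RNA level in all libraries. That level was 2.4%, 4.2% and 5.4% of the melanotroph level by Pomc in WT, P27NULL and S2CK. By the 5 melanotroph genes it would be 3.9%, 6.2% and 15.6%. Kcnk2 led, at 444, 377 and 123 CPM in the WT, P27NULL and S2CK libraries, followed by Kcnk1 at 289, 180 and 164 CPM. Kcnk2 was lower in S2CK than in both other libraries, with a log2 ratio of -1.62 (-2.07 to -1.18) against P27NULL and -1.85 (-2.28 to -1.44) against WT. Within P27NULL, male and female SC-like cells stood at 378 and 371 CPM, the latter from 18 cells. Melanotroph markers in SC-like cells were summed at 113, 420 and 387 CPM and the SC list at 11620, 8616 and 5557 CPM, so SC markers as a whole were also lowest in S2CK. Their part in the Kcnk2 ratio was not tested.

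Gonadotroph-like cells differed in Kcnk3, which encodes TASK-1, an acid-sensitive 2-pore channel. The 3 libraries, in the order WT, P27NULL, S2CK, stood at 15.9, 124 and 13.0 CPM, from 6, 58 and 2 UMIs. The ratio of P27NULL to WT was 2.95 (1.75 to 4.46) and that of S2CK to P27NULL -3.25 (-6.33 to -1.33). In melanotrophs Kcnk3 stood at 23.3, 27.8 and 19.5 CPM, a much smaller range. Gonadotroph markers were summed at 14210, 7777 and 5344 CPM in the 3 libraries and SC markers at 452, 935 and 514 CPM.

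Nonendocrine classes held few members above the level of free RNA. In endothelial-like cells they included Kcnj8, the pore of an ATP-sensitive potassium channel of vessels (90.7, 156 and 33.2 CPM). Markers of mural cells, the contractile cells around vessels, were summed at 758, 1204 and 399 CPM in the same cells, in the same order over libraries as Kcnj8, with 6 of 6 detected. Erythroid markers were summed there at 24.7, 25500 and 13130 CPM. Connective tissue-like cells had Kcnj8 at 41.9, 175 and 258 CPM, from 4, 14 and 27 UMIs, beside mural markers at 251.5, 639 and 1021 CPM, again in the same order and with 6 of 6 detected. The part of mural cells in the Kcnj8 levels was not tested. Macrophage-like cells had few, among them Kcnk6 (3, 2 and 2 UMIs), and T or NK-like cells had no member above it in all 3 libraries. In melanotrophs Kcnj8 averaged 0.039 CPM, the lowest of all 75 members.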

How the data were processed

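The 3 samples were droplet libraries (10x Genomics Chromium Single Cell 3′, HiSeq4000) of dissected ILs dissociated with papain. The authors made the deposited tables of raw UMI counts per gene and cell with Cell Ranger 3.0.2 (STAR 2.5.1b, mm10) and Seurat version 3 in R 3.6.0. Their methods removed cells with fewer than 50 genes or over 10% mitochondrial content, but the lowest cell of WT has 502 UMIs and those of P27NULL and S2CK have 1005 and 1002. Depth was 8332285 to 19239147 UMIs per library. Intervals cover counting error only, and a count of 0 was given a floor of 3 UMIs. Each library was a pool of animals, of males in WT and of both sexes in P27NULL and S2CK by the study's supplement. The strand setting of the counting is not given in the sources used here, and 42 of 74 members with a RefSeq position overlap another gene (12 a protein-coding one).

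Here, all 9661 cells were clustered on log values at 10000 UMIs a cell (2000 variable genes, 20 principal components, 20 neighbours, Leiden resolution 1, scanpy 1.11.5, igraph 0.11.9, Python 3.11.15), without the genes that match the channel patterns and sex-linked genes. Naming a cluster took 3 markers with UMIs, a mean relative level of 0.3 over its markers and a lead of 0.1 over the next type, limits set after the data were seen. Doublets were kept: Scrublet marked only 11 cells, too few for its calls to be used, and an alternative left out the 268 highest scores. Counts were summed per library and class. Cell types were compared with edgeR 4.0.16 (quasi-likelihood test, R 4.3.3, library as a term, TMM, genes at a mean of 10 CPM or more), with Benjamini-Hochberg adjustment over all genes tested and a threshold of 0.05, the 3 libraries, which also differ in genotype, being the replicates. The fit was tested on simulated counts. Each SE beside a log2 difference was derived from the F statistic of this fit, which shares dispersion over genes, and is not the spread of the library values. Genotypes have 1 library each and no test, only a log2 ratio with an exact conditional (Clopper-Pearson) 95% interval. The free RNA level is the melanotroph level times the share of Pomc in a class, or, for corticotroph-like and other endocrine cells, which make Pomc themselves, of 5 melanotroph genes (Pax7, Oacyl, Megf11, Rbfox3, Esm1), a change made after the design was set.

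Genes named were those called in the same direction in every library (up to 12 each way), the 2 highest in each role group, up to 8 each way per genotype contrast past 1.5-fold with an interval without 0, and up to 3 per other class above free RNA. Others named were chosen after their values were seen. Some genes that this rule names are not reported here, in the text or the figures. Members and lists were chosen with earlier results of these data known. Alternatives were DESeq2 1.42.0, other scalings and filters, other gates, cell filters and thinning to 1000 UMIs, leaving out each library, and cells of one sex. Gated cells that also lay in a melanotroph-like cluster, and each endocrine class alone, were added after the data were seen.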

Additional observations from a re-analysis of the deposited data

How the results depend on the processing

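No paired analysis was possible between genotypes because each has 1 library. Between cell types the library term served as the block, and without it 10 in place of 15 members were called against other endocrine cells and 11 in place of 9 against pituicyte-like cells. Against other endocrine cells DESeq2 called 9 and the fit without a filter on low values 23, and leaving out 1 library gave 8 to 13 calls, the lowest without S2CK. Against pituicyte-like cells leaving out 1 library gave 3 to 7 calls, the lowest without WT. Against other endocrine cells Kcnk12, Kcnip3, Kcnmb4os2, Cacna2d2, Scn3a, Kcnj6 and Kcnk1 each lost their call under 1 to 6 alternatives, and the cause was not tested.

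Members past 1.5-fold in P27NULL against WT numbered 18, but 5 with cells thinned to 1000 UMIs and 7 at a minimum of 100 UMIs. In S2CK against P27NULL they numbered 13, but 8 under thinning, at 100 UMIs and with Pomc and the mitochondrial and ribosomal protein genes left out of the total. In S2CK against WT they numbered 16, but 6 under thinning and 9 at 100 UMIs. Thinning and the higher minimum leave fewer members to count (29, 40 and 29 of 63, 68 and 64 under thinning). The median ratio of S2CK to P27NULL moved from -0.25 to -0.11 with TMM factors and -0.13 with that total, and that of S2CK to WT from -0.05 to 0.0294 with TMM factors, 0.0356 with melanotroph-like clusters and 0.0190 at 100 UMIs. Cacng2 in P27NULL against WT reversed from 1.15 to -0.21 under thinning, and Cacnb1 in S2CK against P27NULL from -0.70 to 0.39 against the female cells of P27NULL. Depth limits the smaller classes most: 3 UMIs stand for 46.5 to 93.5 CPM in pituicyte-like cells, against 0.177 to 0.486 in melanotrophs (floors given for Cacna1d).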
